A study of Mus musculus with 6 samples.

Results

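Interferon-induced genes were followed in mouse leukemias, as 46 symbols listed by name. A member was measured where the annotation gave it a probe set of its own, and of several such probe sets the one of highest mean level was taken. This held for 39 of the 46, among 22180 named genes in all. Of the other 7, Oas1a, Gbp2, Ifi47, Dtx3l, Ifi203 and Ifi27l2a lay only on probe sets of several genes, and Ifi44 had none of its own in the annotation used here; they were not analysed. Ifit2, Mx1, Mx2, Gbp3, Iigp1, Ifi204 and Trim30a had mean levels below the filter of the tests, 4.13 on the log2 scale, which left 32 tested members. The rule used symbols and mean levels and not the difference between genotypes or the spread over arrays. The list of symbols itself was chosen with earlier results of these data known.

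The samples were c-Kit+ leukemic cells sorted from the spleens of mice at the end stage of disease, on 1 expression array each. The tested genotype was Chd7f/f, Mx1-Cre, Cbfb+/56M (3 samples), in which both alleles of the chromatin remodeller gene Chd7 are floxed. Its reference, called the control here, was Mx1-Cre, Cbfb+/56M (3 samples). Both genotypes carried the Cbfb+/56M allele, a conditional form of the Cbfb-MYH11 fusion of core-binding factor leukemia, and Mx1-Cre, a recombinase driven by the promoter of the interferon-induced gene Mx1. All mice had received the mutagen ENU and pIpC, a synthetic double-stranded RNA that sets off interferon production and so turns on Mx1-Cre. No mouse without pIpC is among the samples, and the time between the injections and the sort is not given in the labels, so what pIpC itself left behind cannot be told apart from interferon signalling of the leukemia or its host. The samples of a genotype are described as independent, while the labels leave unsaid whether each is 1 mouse; p-values here reflect the sample-to-sample spread alone.

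Type I interferons bind the receptor of Ifnar1 and Ifnar2, and the kinases Jak1 and Tyk2 then signal to the complex ISGF3, which contains Stat2 and Irf9. ISGF3 binds a short DNA motif, the interferon-stimulated response element, in front of its target genes. The targets include RNA sensors, transcription factors that amplify the response, antiviral effectors, and inhibitors such as Usp18 that shut the receptor down again. Interferon gamma has a receptor of its own and is known as the main inducer of the guanylate-binding proteins and immunity-related GTPases on the list.

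The motif was looked for in the RefSeq promoters of GRCm38.p6, windows of 250 bases before and 50 after a gene's start, which held 32 of the 46 members. The core searched was GAAA, any pair of bases, then GAAA, read on both strands and with overlapping matches counted. It was present in 19 of these 32 genes (59.4%), against 1079 of 27025 genes in the promoter table (3.99%). The longer form, with a C after the second GAAA, was present in 14 members (43.8%) and in 0.944% of all genes. TTCNNNGAA, the core of sites of STAT dimers, was present in 7 members (21.9%) and in 9.55% of all genes. A match is a description of the letters and not a site shown to be bound.

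**Figure D1:**
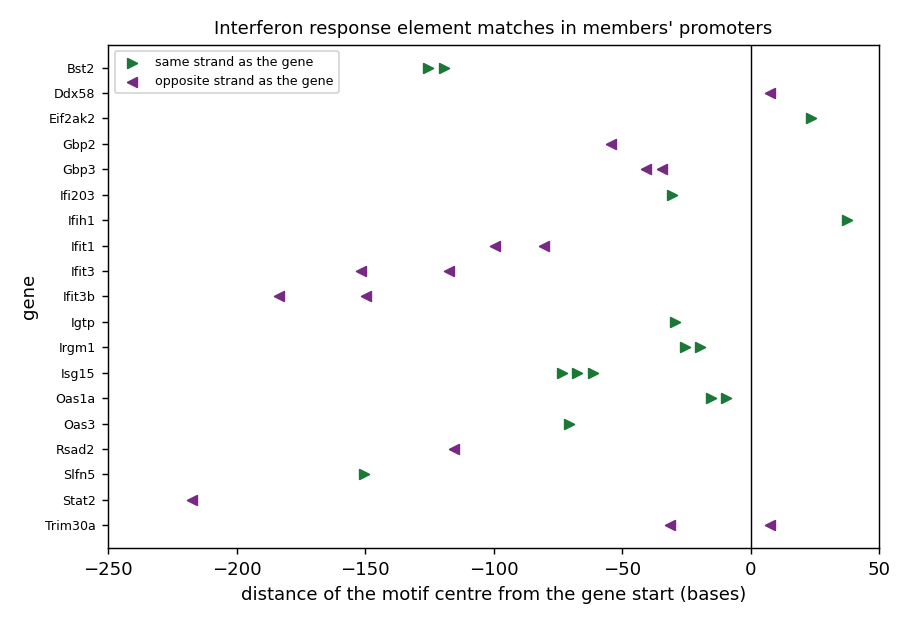
Matches to the core of the interferon-stimulated response element in the promoter windows of the 19 members that hold it. The horizontal axis is the distance of the match from the gene's start in bases and the vertical axis the gene; right-pointing marks lie on the gene's strand and left-pointing marks on the opposite one. Isg15 has 3 overlapping matches, and Ifit3 and Ifit3b each have a pair.

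Promoter stretches before the gene start are given for a member with a wide range between leukemias that holds the motif (Trim30a) and, chosen after the values were seen, for Isg15, which varied widely, for 3 IFIT genes, which varied less, and for the GTPase gene Igtp. Each is written on the strand of its gene, from RefSeq on GRCm38.p6, and capitals mark the motif core or its reverse complement.
Trim30a, chr7:104465200-104465249, minus strand: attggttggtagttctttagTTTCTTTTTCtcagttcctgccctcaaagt
Isg15, chr4:156200855-156200916, minus strand: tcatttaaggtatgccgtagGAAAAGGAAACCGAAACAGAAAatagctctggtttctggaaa
Ifit1, chr19:34640765-34640833, plus strand: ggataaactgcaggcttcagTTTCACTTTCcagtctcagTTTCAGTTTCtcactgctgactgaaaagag
Ifit3, chr19:34583353-34583436, plus strand: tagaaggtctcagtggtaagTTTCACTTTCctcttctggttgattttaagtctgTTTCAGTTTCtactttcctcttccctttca
Ifit3b, chr19:34607749-34607832, plus strand: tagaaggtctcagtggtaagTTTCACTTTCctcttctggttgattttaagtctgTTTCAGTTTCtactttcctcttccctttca
Igtp, chr11:58199502-58199551, plus strand: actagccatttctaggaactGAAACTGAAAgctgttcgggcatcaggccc
The stretches of Ifit3 and Ifit3b were identical at 84 of 84 bases. These genes are close copies of each other, so their probe sets may share signal, and the values of Ifit3 and Ifit3b are uncertain in that respect, as may be those of the Oas genes and of Ifi204.

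All values are log2 RMA levels, on which a difference of 1 is a doubling; levels of different probe sets cannot be set against each other. Medians of the arrays lay between 4.72 and 4.84. Kit, the gene behind the sort, was between 11.69 and 12.48 in Chd7f/f and between 11.68 and 12.12 in control leukemias, while the progenitor marker Cd34 spanned 5.61 to 9.47 over the 6 arrays. Chd7 was at 5.48, 6.50 and 5.91 in Chd7f/f and at 6.17, 7.54 and 5.32 in control leukemias, which overlap; the difference was -0.38 (SE 0.58; limma, adjusted p = 0.9998), and 0.22 without control replicate 2. The place of its probes relative to the floxed part is not given, so this does not check the deletion. Xist was at 10.1 in control replicate 2 and at most 3.88 elsewhere, and Eif2s3y at 4.43 in control replicate 2 and at least 8.72 elsewhere. Control replicate 2 is thus alone in the female pattern of these genes, and sex cannot be told apart from anything else particular to that array.

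Control replicate 2 also stood apart in the interferon-induced genes. The mean over the 39 measured members, each taken relative to its own mean over the arrays, was 0.04, -0.24 and 0.01 for the Chd7f/f leukemias, against -0.20, 0.50 and -0.11 for the controls. The same mean over all 15526 tested genes stayed between -0.07 and 0.03 on every array. Control replicate 2 had the highest value of 22 of the 39 members (56.4%), against 15.1% of all tested genes, and Chd7f/f replicate 2 and control replicate 1 had the lowest value of 12 members each (30.8%), against 17.9% of all tested genes for Chd7f/f replicate 2 and 16.4% for control replicate 1. Of the squared deviations of the members, 46.2% lay on control replicate 2, against 12.5% for all tested genes. The 39 members include 7 below the filter, unlike the tested genes. Over the 32 tested members alone, control replicate 2 had a mean of 0.62, the highest value of 21 (65.6%) and 52.6% of the squared deviations.

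**Figure D2:**
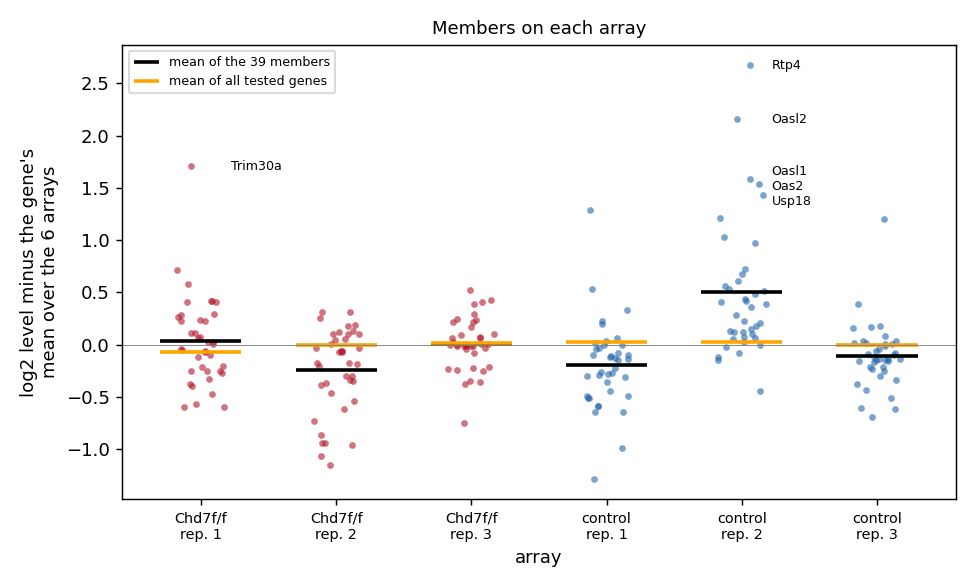
Level of each of the 39 members on each array minus the gene's mean over the 6 arrays, in log2 units, with 1 point per gene and array; Chd7f/f arrays are red and control arrays blue. Black bars are the mean of the members and orange bars the mean of all tested genes; the black bar of control replicate 2 lies at 0.50.

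The signature of control replicate 2 rested on a part of the list. By more than 1 log2 unit above every other array were Rtp4, Oasl2, Oasl1, Oas2, Usp18 and Irf7, 6 of 39 members (15.4%), against 0.573% of all tested genes. Isg15 and Ifit3b were also above by more than 0.5, which brings the count to 8 members (20.5%) against 1.42% of all tested genes. Of the 32 tested members alone, these counts of 6 and 8 are 18.8% and 25%. On other arrays such gaps were met by single members: Trim30a lay more than 1 above all others in Chd7f/f replicate 1 and Ifit2 in control replicate 3, while Parp14 lay more than 1 below all others in control replicate 1.

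**Figure D3:**
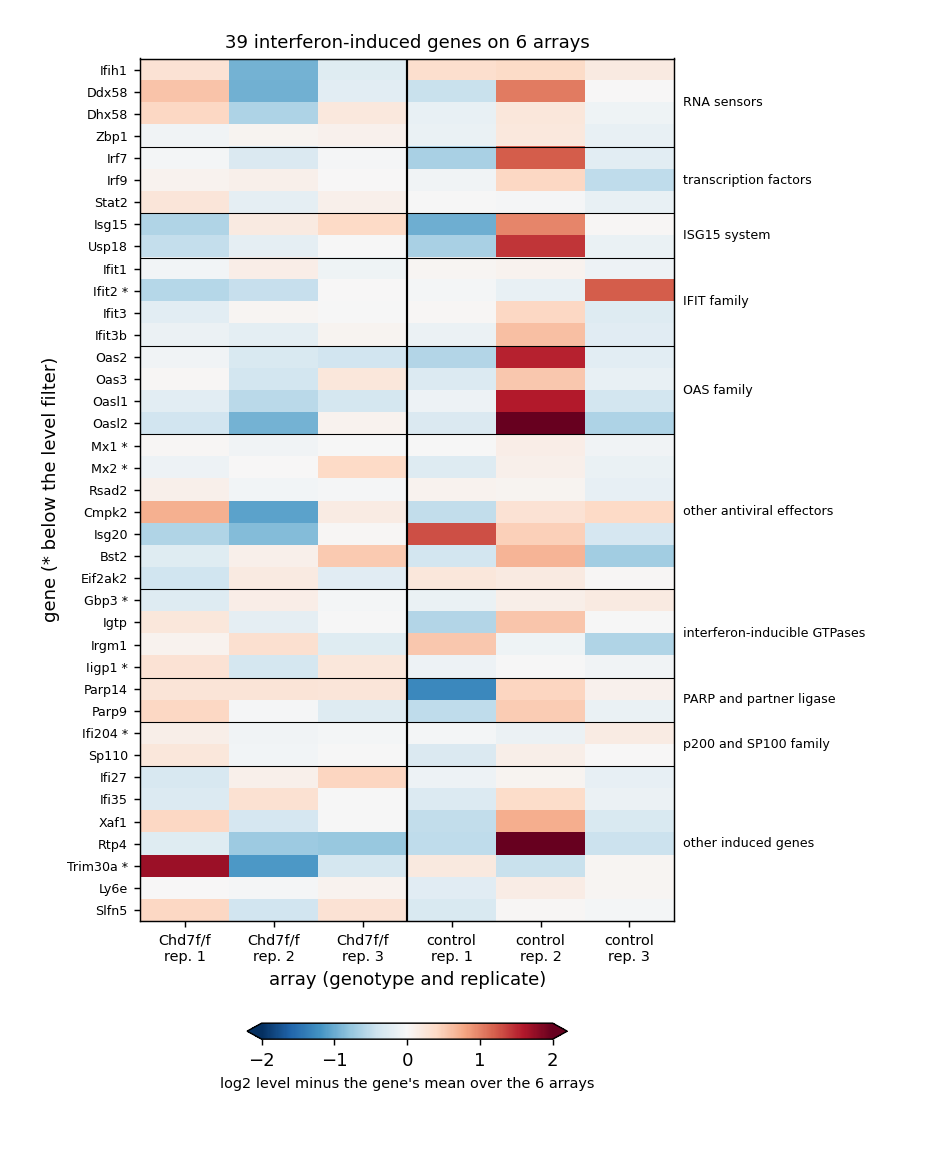
Heat map of the 39 measured members (rows, grouped by role) on the 6 arrays (columns, Chd7f/f left and control right). Colour is the log2 level minus the gene's mean over the arrays, cut at 2 and -2, and a star marks members below the level filter. The darkest red cells are Rtp4 and Oasl2 in control replicate 2, and no row divides the columns by genotype.

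Among the RNA sensors, Ddx58, which encodes RIG-I, was at 7.74, 6.21 and 6.95 in Chd7f/f and at 6.72, 8.20 and 7.17 in control leukemias. Ifih1, which encodes MDA5, the cytosolic sensor of long double-stranded RNA such as pIpC, was at 8.76, 7.53 and 8.23 in Chd7f/f and at 8.80, 8.86 and 8.65 in control leukemias. Dhx58, the third of these helicases, was at 6.53, 5.50 and 6.33 in Chd7f/f and at 5.98, 6.34 and 6.03 in control leukemias. All 3 had their lowest value in Chd7f/f replicate 2, and for each the genotypes overlapped. Zbp1, a sensor of Z-form nucleic acids that can start necroptosis, spanned only 0.35 over the 6 arrays.

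Of the transcription factors, Irf7, which drives interferon alpha genes and is itself induced by interferon, was at 6.79, 6.53 and 6.81 in Chd7f/f and at 6.18, 8.04 and 6.62 in control leukemias. Its value in control replicate 2 was 1.23 above the next array, a 2.34-fold step, while the other 5 arrays lay within 0.63. Irf9, the DNA-binding part of ISGF3, was at 8.64, 8.68 and 8.59 in Chd7f/f and at 8.50, 8.995 and 8.07 in control leukemias, with control replicate 2 again highest. Stat2, its partner, spanned only 0.41 and had no high value in control replicate 2, where it was 0.26 below the highest of the other arrays.

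The ISG15 system behaved alike on the arrays. Isg15, the ubiquitin-like modifier with 3 overlapping motif matches in the stretch above, was at 6.28, 7.06 and 7.28 in Chd7f/f and at 5.89, 7.85 and 6.90 in control leukemias. Usp18, the protease that removes ISG15 and restrains the receptor chain Ifnar2, was at 4.78, 5.08 and 5.25 in Chd7f/f and at 4.61, 6.69 and 5.12 in control leukemias. Both genes were lowest in control replicate 1 and highest in control replicate 2, and within Chd7f/f both were lowest in replicate 1.

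The oligoadenylate synthetases, enzymes that make the activator of RNase L, and the related OAS-like genes gave the clearest pattern. Oasl2 was at 4.42, 3.86 and 4.87 in Chd7f/f and at 4.51, 6.96 and 4.19 in control leukemias. Oasl1, known in mice as a brake on Irf7 translation, was at 6.06, 5.73 and 5.91 in Chd7f/f and at 6.17, 7.86 and 5.90 in control leukemias. Oas2 was at 4.90, 4.67 and 4.59 in Chd7f/f and at 4.38, 6.50 and 4.75 in control leukemias. In each of these genes a single array was high, control replicate 2, by 4.25-fold (Oasl2), 3.22-fold (Oasl1) and 3.03-fold (Oas2) over the next array. Oas3 was highest there too, by 0.30, with values of 6.30, 5.90 and 6.50 in Chd7f/f and 5.999, 6.80 and 6.12 in control leukemias.

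**Figure D4:**
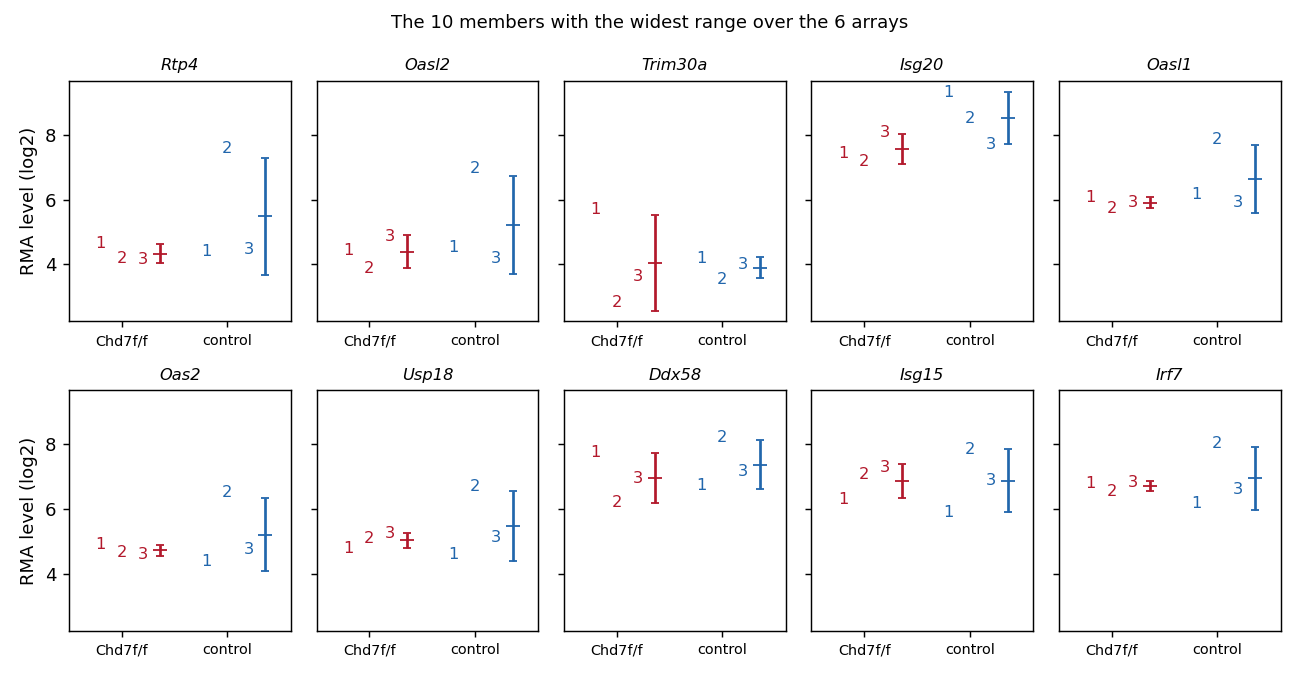
Log2 RMA levels of the 10 members with the widest range over the arrays. Digits are the replicate numbers, Chd7f/f in red on the left and control in blue on the right of each panel, and bars give mean and SD of 3 arrays. In 8 of the 10 panels control replicate 2 is the highest value; Trim30a and Isg20 are the exceptions.

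The IFIT genes, which encode proteins that bind viral RNA, did not share 1 highest array. Ifit3 and Ifit3b were highest in control replicate 2, by 0.36 and 0.55, Ifit1 in Chd7f/f replicate 2 and Ifit2 in control replicate 3. Ifit1, Ifit3 and Ifit3b hold motif pairs. Ifit1 was at 4.36, 4.54 and 4.33 in Chd7f/f and at 4.45, 4.49 and 4.31 in control leukemias, a range of 0.23 on levels close to the filter. Ifit3 was at 5.48, 5.74 and 5.69 in Chd7f/f and at 5.72, 6.11 and 5.44 in control leukemias, and Ifit3b was at most 4.37 on 5 arrays and at 4.92 in control replicate 2. Ifit2, below the filter on average, was at 5.13 in control replicate 3 and at most 3.93 elsewhere.

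Rtp4, a chaperone of receptor transport induced by interferon, had the widest range of all members, 3.42. It was at 4.66, 4.17 and 4.16 in Chd7f/f and at 4.40, 7.58 and 4.47 in control leukemias. Control replicate 2 lay 2.92 above the next array, a 7.57-fold step, and the other 5 arrays lay within 0.50 of each other. Xaf1, a proapoptotic partner of XIAP, was at 6.17, 5.42 and 5.75 in Chd7f/f and at 5.27, 6.49 and 5.46 in control leukemias, with its highest value there as well.

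Other antiviral effectors had patterns of their own. Isg20, a 3′ exonuclease, was at 7.44, 7.17 and 8.06 in Chd7f/f and at 9.32, 8.52 and 7.70 in control leukemias, so that its highest array was control replicate 1. Cmpk2, a mitochondrial nucleotide kinase, was at 7.03, 5.25 and 6.49 in Chd7f/f and at 5.83, 6.60 and 6.71 in control leukemias. Rsad2, which encodes viperin and is the neighbour of Cmpk2 in the RefSeq annotation, spanned only 0.27, between 5.49 and 5.76. Bst2, which encodes the virus-retaining membrane protein tetherin, was at 7.42, 7.76 and 8.19 in Chd7f/f and at 7.30, 8.34 and 6.98 in control leukemias. Eif2ak2, which encodes the RNA-activated kinase PKR, was at 7.43, 8.005 and 7.60 in Chd7f/f and at 8.05, 8.01 and 7.84 in control leukemias. Mx1, the gene whose promoter drives the Cre of these mice, was at 3.32, 3.22 and 3.28 in Chd7f/f and at 3.29, 3.42 and 3.21 in control leukemias. Mx2 was at 3.47, 3.58 and 3.97 in Chd7f/f and at 3.31, 3.67 and 3.44 in control leukemias. Both lay below the filter on average. The Mx1 probe set reads the endogenous gene and says nothing of the transgene.

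Among the interferon-inducible GTPases, which act on the membranes around intracellular parasites, Igtp was at 6.61, 6.20 and 6.38 in Chd7f/f and at 5.80, 6.94 and 6.37 in control leukemias. Irgm1 was at 7.06, 7.31 and 6.76 in Chd7f/f and at 7.53, 6.91 and 6.39 in control leukemias, and was thus not high in control replicate 2. Gbp3 was at 3.66, 4.04 and 3.88 in Chd7f/f and at 3.78, 4.04 and 4.09 in control leukemias, and Iigp1 at 3.83, 3.20 and 3.76 in Chd7f/f and at 3.44, 3.54 and 3.48 in control leukemias, both below the filter on average. Parp14, an ADP-ribosyltransferase, was at 8.26, 8.25 and 8.24 in Chd7f/f and at 6.71, 8.43 and 8.08 in control leukemias. A single low array, control replicate 1, made its range of 1.72. Parp9, which acts with the ligase Dtx3l, was at 7.91, 7.47 and 7.24 in Chd7f/f and at 6.99, 8.01 and 7.36 in control leukemias, lowest on the same array.

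The remaining members varied less, with 1 exception. Ly6e, which encodes a membrane-anchored protein that limits coronavirus entry, was at 12.98, 12.94 and 13.04 in Chd7f/f and at 12.75, 13.12 and 13.00 in control leukemias. Sp110, a nuclear body protein, was at 9.64, 9.36 and 9.41 in Chd7f/f and at 9.13, 9.54 and 9.43 in control leukemias. Ifi35 was at 8.05, 8.63 and 8.31 in Chd7f/f and at 8.04, 8.68 and 8.20 in control leukemias. The genotypes overlapped in each, as they did for Ifi27, between 6.89 and 7.64. Ifi204, a DNA-binding protein of the p200 family, was at 3.14, 2.96 and 2.99 in Chd7f/f and at 2.98, 2.91 and 3.19 in control leukemias, below the filter. Slfn5, a member of the Schlafen family, was at 5.05, 4.24 and 4.92 in Chd7f/f and at 4.32, 4.66 and 4.59 in control leukemias. The exception was Trim30a, a TRIM protein gene, at 5.68, 2.83 and 3.63 in Chd7f/f and at 4.17, 3.53 and 4.01 in control leukemias. Its high and low ends were both Chd7f/f arrays, and only Chd7f/f replicate 1 lay clearly above the filter.

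No member separated the genotypes. In limma, 0 of the 32 tested members passed an adjusted p of 0.05, and 0% of all 15526 tested genes did; 0 members had an unadjusted p under 0.05, where 1.84% of all tested genes had, and without the filter 0 of 39 had, where 2.39% of all named genes had. The values of the genotypes overlapped for every one of the 39 measured members, so 0 were free of overlap, where 6.81% of tested genes and 7.74% of all named genes were. The median difference, Chd7f/f minus control, was -0.001 over the 39 members and -0.02 over all named genes, with 19 members higher and 20 lower. With 3 arrays a genotype, the smallest p that an exact two-sided permutation test allows is 0.1.

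**Figure D5:**
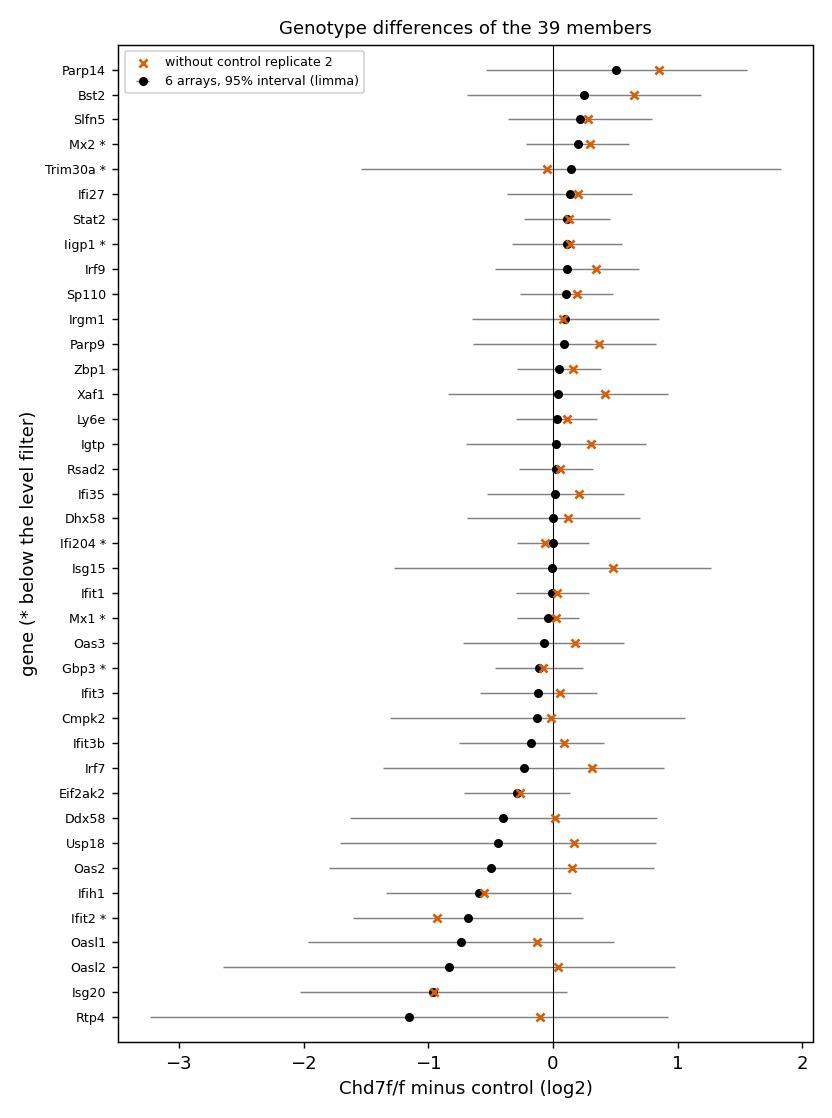
Chd7f/f minus control difference of the 39 members on the log2 scale. Points and bars are limma estimates over the 6 arrays with 95% intervals (members with a star lie below the level filter and come from the fit without it), and orange crosses are the estimates without control replicate 2. Every interval contains 0, and the cross of Rtp4 lies at -0.11 where its point lies at -1.15.

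The members with the smallest p had these differences. Isg20 averaged 7.56 ± 0.46 in the Chd7f/f group and 8.52 ± 0.81 in the control group (SD, n = 3 per genotype) and differed by -0.96 (SE 0.44). Ifih1 averaged 8.17 ± 0.62 in the Chd7f/f group and 8.77 ± 0.11 in the control group (SD, n = 3 per genotype) and differed by -0.60 (SE 0.31). Eif2ak2 differed by -0.29 (SE 0.18). Oasl1 differed by -0.74 (SE 0.51), Rtp4 by -1.15 (SE 0.86), Oasl2 by -0.83 (SE 0.75), Oas2 by -0.49 (SE 0.54) and Usp18 by -0.44 (SE 0.52). On the higher side were Parp14 at 0.51 (SE 0.43) and Slfn5 at 0.22 (SE 0.24). All 10 had an adjusted p of 0.9998 (limma), and the smallest unadjusted p, that of Isg20, was 0.0714. The differences of Ddx58, Irf7, Isg15 and Trim30a, also among the widest ranges, were -0.40, -0.23, -0.003 and 0.14.

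How far these arrays could resolve a difference varied by gene. The 95% interval lay within 1 log2 unit of 0 on both sides for 19 of the 32 tested members, among them Ifit1 (-0.30 to 0.29), Rsad2 (-0.27 to 0.32), Ly6e (-0.29 to 0.36), Stat2 (-0.23 to 0.46) and Sp110 (-0.27 to 0.48). For Rtp4 it ran from -3.23 to 0.92 and for Oasl2 from -2.64 to 0.98.

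Control replicate 2 decided the sign for many members. That array was set apart by high values of these same members, so leaving it out raises most of their differences by construction. The direction of the counts without control replicate 2 is therefore no separate result. Without it, 29 of the 39 members were higher in Chd7f/f leukemias, with a median difference of 0.12, against 46.2% of all named genes higher and a median of -0.02. Rtp4 then differed by -0.11 and Oasl1 by -0.13, and among the members with the widest ranges the signs turned for Oasl2 (0.04), Oas2 (0.15), Usp18 (0.17), Ddx58 (0.02), Irf7 (0.31), Isg15 (0.48) and Trim30a (-0.04). Zbp1, Irf9, Bst2 and Parp14 then had both genotypes apart, all 4 higher in Chd7f/f leukemias, which is 4 of 32 tested members against 18.4% of tested genes, and 0 members had an unadjusted p under 0.05 (limma), against 3.07% of tested genes. Isg20 (-0.96) and Ifih1 (-0.55) hardly moved. Without control replicate 3, Ifih1, Oasl1, Isg20 and Eif2ak2 had both genotypes apart, all 4 lower in Chd7f/f leukemias, against 15.3% of tested genes, and 1 member, Isg20, had an unadjusted p under 0.05 (limma), against 2.26% of tested genes. Other arrays decided the sign of single members: Parp14 was at -0.0060 without control replicate 1, and Trim30a at -0.67 without Chd7f/f replicate 1.

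The members varied more between leukemias of a genotype than most genes did. The median range over the 6 arrays was 1.08 for the 32 tested members and 0.57 for all tested genes, and a range over 1 was found for 18 of the 32, against 22.3% of all tested genes. The median SD among control arrays was 0.47 for the members and 0.19 for all tested genes, and among Chd7f/f arrays 0.28 for the members and 0.20 for all tested genes. Without control replicate 2, the median range over the remaining 5 arrays was 0.63 for the tested members and 0.52 for all tested genes, with 10 of the 32 tested members over 1, against 20.3% of all tested genes.

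Coordination was taken as the mean Pearson correlation over the 6 arrays among all 496 pairs of tested members, a description across genes that share arrays, with no p. It was 0.36 for the members and 0.009 for all tested genes, and 80.2% of the member pairs were positive. Without control replicate 2 the mean was 0.11 for the members and 0.01 for all tested genes, and 59.7% of the pairs were positive, while leaving out any other single array gave 0.34 to 0.43. The 4 OAS genes had a mean of 0.88, or 0.21 without control replicate 2. The 2 genes of the ISG15 system stayed at 0.87 and 0.99 with and without it, and Parp14 with Parp9 at 0.72 and 0.70. The interferon-inducible GTPases had a mean of -0.22 over 4 genes, of which 2 lay below the filter.

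The ranges were also set beside the promoter matches. The 16 measured members with the motif core had ranges of 0.23 to 2.86, with a median of 0.87, and the 10 with a promoter entry but no match 0.51 to 3.10, with a median of 1.77. Only the exact core within the window counted as a match, so a variant or more distant form was scored as none. The sets were not matched for level, and the difference between them was not tested. Oasl2, Oasl1 and Irf7 are among those without a match, and Rtp4, Oas2 and Usp18 are among the 13 measured members without a promoter entry, which had ranges of 0.21 to 3.42 with a median of 0.75.

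Outside the list, 97 of 105 other interferon pathway genes were measured and 77 tested. None passed an adjusted p of 0.05 (limma), and 3 had an unadjusted p under 0.05, all lower in Chd7f/f leukemias, where 1.84% of all tested genes had. Ifi30, a lysosomal thiol reductase, was at 7.95, 7.87 and 9.28 in Chd7f/f and at 10.24, 9.21 and 9.14 in control leukemias, and differed by -1.16 (SE 0.47), or -0.56 with array weights. The chemokine Ccl5 was at 6.20, 5.52 and 6.48 in Chd7f/f and at 7.57, 6.68 and 6.56 in control leukemias, and differed by -0.86 (SE 0.36), or -0.55 both without control replicate 1 and with array weights. Ifna6, an interferon alpha gene, was at 4.83, 4.65 and 4.96 in Chd7f/f and at 5.19, 5.12 and 5.04 in control leukemias, and differed by -0.31 (SE 0.13). The genotypes did not overlap for Ccl5 and Ifna6 and did for Ifi30. Of the other pathway genes, Irf2 and the interferon genes Ifnl3 and Ifnab were also free of overlap, Ifnab below the filter. Among all tested genes 6.81% were free of overlap, and among all named genes 7.74%. The unadjusted p-values of Ifi30, Ccl5 and Ifna6 were 0.0480, 0.0497 and 0.0495, and the adjusted p was 0.9998 for each (limma).

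Of 20 measured interferon genes 9 lay below the filter, with Ifnb1 between 3.11 and 3.40. Ifnl3, Gm13271 and Ifng differed by -0.32, -0.44 and -0.28. These genes and Ifna6 do not stand for the whole list. Among the 20, the difference was positive for 9 and negative for 11, and it ran from -0.44 to 0.20. Its median was -0.04, where that of all named genes was -0.02. Receptor chains and kinases were measured for 9 genes, 8 of them higher and 1, Tyk2 (-0.39), lower in Chd7f/f leukemias, against 45.0% of all named genes higher. None had an unadjusted p under 0.05 (limma). Chd7f/f replicate 1 held the highest value of 4 of the 9, against 18.7% of all tested genes. Ifnar1 was between 8.87 and 9.16 in Chd7f/f and between 8.70 and 9.02 in control leukemias, and Ifnar2 between 9.62 and 10.32 in Chd7f/f and between 9.51 and 9.98 in control leukemias. Neither receptor chain had its highest value in control replicate 2. Ifngr1, a chain of the interferon gamma receptor, differed by 0.37 (SE 0.43). Irf1 was between 5.99 and 6.73 in Chd7f/f and between 6.24 and 6.28 in control leukemias, and Irf8, Irf2 and Irf3 differed by 0.26, 0.15 and 0.04, with both genotypes apart for Irf2. Irf5 had no probe set of its own in the annotation used here and was not analysed. Tlr3, the endosomal receptor of pIpC, was below the filter on average, between 2.99 and 3.72, and the other 9 sensing genes gave none at an unadjusted p under 0.05. Sting1, the adaptor of cytosolic DNA sensing, differed by 0.62 (SE 0.41) and Cgas, which makes its activating messenger, by 0.29 (SE 0.20), while the kinase gene Ikbke differed by -0.53 and the RNA receptor gene Tlr7 by 0.13.

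A further 46 interferon-induced genes were measured, of which 37 were tested. Among the 46, control replicate 2 held the highest value of 15 (32.6%), against 15.1% of all tested genes, and control replicate 1 that of 10 (21.7%), against 24.4% of all tested genes. Ifitm3, which blocks viral fusion in endosomes, was at 6.25, 6.68 and 7.99 in Chd7f/f and at 6.50, 9.76 and 6.68 in control leukemias, the only gene of them more than 1 above all other arrays there. The feedback inhibitor Socs1 was at 8.29, 8.20 and 8.36 in Chd7f/f and at 8.06, 9.17 and 8.04 in control leukemias, and Socs3 was highest on the same array, at 6.65 against at most 5.93. The phosphatase genes Ptpn2 and Ptpn6 and the STAT inhibitor gene Pias1 differed by 0.19, 0.22 and 0.11, and Socs3 by -0.42, between genotypes. Slfn2 differed by -0.56 and Lgals3bp by -1.56 (SE 0.96), both with overlap. Parp12 was at 8.17, 8.42 and 7.99 in Chd7f/f and at 5.68, 8.44 and 8.10 in control leukemias, low on the array on which Parp14 was low. Ifitm3, Socs1 and Parp12 were named after their values were seen.

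Markers of other spleen cells were read on the same arrays, since in sorted bulk RNA fewer cells of a type and less RNA per cell cannot be told apart. Relative to their own means, 7 plasmacytoid dendritic cell genes averaged 0.11, 12 monocyte and macrophage genes 0.10, 9 neutrophil genes 0.12 and 10 T and NK cell genes 0.03 in control replicate 2, where the members were at 0.50. Of these marker genes 5, 12, 6 and 5, in that order, had mean levels at or above the filter. Part of these averages thus rests on genes of low level. The 4 B cell genes averaged 0.53 on that array. Cd79a reached 7.18 on it and no more than 5.26 on any other. Cd79b was second highest there, with 5.08 after 5.15 in control replicate 1. Ms4a1, below the filter on average, had its highest value there, 3.95, against 3.89 on the next array. Pax5 was not raised: its value of 4.66 lay inside the span of the other arrays, 4.64 to 4.79. Monocyte and macrophage genes were highest in Chd7f/f replicate 3, at 0.71, and lowest in control replicate 3, at -0.70. Replication and mitosis genes were at -1.51 in Chd7f/f replicate 1 and at -0.07 in control replicate 2, and erythroid genes at -0.49 in control replicate 2. No marker is at 0 on this scale, and the part of other cells, of sex and of the cell cycle in the members' levels was not tested.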

How the data were processed

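RNA of 6 samples was measured on Affymetrix mouse Gene 2.0 ST arrays, per the series' design text. The authors deposited log2 values for every probe set of every array, made with RMA and Affymetrix Expression Console, per the submitters' processing notes. For both tools, version and options were not stated in any source used here. RMA equalises array distributions, so total signal is not comparable. The log base rests on that method and on the range, 1.78 to 13.5. Probe sets numbered 41345, of which 23521 had 1 gene symbol, 1814 several and 16010 none listed. Symbols were updated by Entrez identifier in RefSeq (21994 of 22180 genes matched). For 1082 genes with several probe sets the highest mean was kept. Genes at or above the 30th percentile of mean level, 4.13, were tested.

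The contrast of genotypes was fitted in limma 3.58.1 under R 4.3.3, with lmFit and eBayes and no covariate, with Benjamini-Hochberg adjustment over all 15526 tested genes. On simulated data for this comparison it recovered 40% of the genes shifted by 1 on the log2 scale and 78.5% of those shifted by 2. On the arrays themselves, the median SD within a genotype was 0.43 for the members and 0.22 for all tested genes. Recovery at the members' wider spread, or with an outlying array, was not tested. Detection calls were not used, and the number of arrays limits precision. Genes with values on every array were the 10 members with the smallest p, the 10 widest ranges, the 5 highest and 5 lowest mean levels, and, with their differences, up to 4 genes per other interferon list; further members were added after their values were seen. The members and lists were chosen with earlier results of these data known. Alternatives were another quantile normalization, median centring, other filters, the mean of probe sets, a trended robust prior, array weights, a replicate block, and each array left out.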

Additional observations from a re-analysis of the deposited data

How the results depend on the processing

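The count of members at an adjusted p under 0.05 (limma) stayed 0 under all alternatives, including an adjusted p under 0.1, and so did the count over all genes. At an unadjusted p under 0.05, all tested genes numbered 286, but 530 without the filter, 159 with the filter at the 50th percentile, 571 with array weights and 270 to 477 with 1 array left out. Members at that threshold numbered 0, and 1 (Ifih1) with array weights; with 1 array left out they numbered 0 to 2: Ifih1 without Chd7f/f replicate 1, Eif2ak2 and Slfn5 without Chd7f/f replicate 2, and Isg20 without control replicate 3. Members without overlap numbered 0 of 32 tested, where 6.81% of all tested genes were without overlap. With 1 array left out such members numbered 0 to 4. They were 4 of 32 without control replicate 2, against 18.4% of all tested genes, and 4 of 32 without control replicate 3, against 15.3%. For the other arrays left out the share of all tested genes is not given here. Other pathway genes at an unadjusted p under 0.05 numbered 3, but 1 with the filter at the 50th percentile and 0 to 5 with 1 array left out. The median difference of the members ranged from -0.13 to 0.12, the mean of the members in control replicate 2 from 0.45 to 0.62, the median range of the 39 members from 0.64 to 1.02 and the mean pairwise correlation from 0.11 to 0.43; both of the lowest values came without control replicate 2.

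Of 536 values of 39 named genes under alternatives, 517 kept their sign and 19 did not. Isg15 turned to 0.0049 with median centring and 0.15 with array weights, and Trim30a to -0.19 with array weights. With 1 array left out, the lowest and highest values were -0.0060 and 0.85 for Parp14, -1.35 and 0.039 for Oasl2, -0.91 and 0.15 for Oas2, -0.87 and 0.17 for Usp18, -0.67 and 0.75 for Trim30a, -0.78 and 0.020 for Ddx58, -0.50 and 0.48 for Isg15, -0.62 and 0.31 for Irf7, -0.014 and 0.33 for Ifnar2, -0.13 and 0.19 for Irf3 and -0.89 and 0.22 for Chd7. The cause was not tested beyond the array named. No pairing of samples by replicate number was seen: deviations of same-numbered arrays correlated at 0.027, -0.025 and 0.034 across genes, and Chd7f/f replicate 2 correlated best with control replicate 3 (0.089). A pairing that affects few genes or is weak could be missed by this check. With the replicate block 332 genes had an unadjusted p under 0.05, 0 genes passed the adjusted threshold, and the median difference of the members was -0.001.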
